A study of Sus scrofa with 4 samples.

Results

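Transcripts of the glutathione peroxidases *GPX1*, *GPX2*, *GPX3* and *GPX4*, the superoxide dismutases *SOD1* and *SOD2*, the catalase gene *CAT* and the thioredoxin inhibitor gene *TXNIP* were examined in the ileum of piglets with low or high weight gain. Probes were assigned to these genes when the array design named a RefSeq transcript of the pig gene, without its version number. This gave 32 of the 43603 probes on the array and 7 of its 2389 named genes. *CAT* had 9 probes, *TXNIP* 7, *GPX1* 6, *GPX3* 4, *GPX4* 3, *SOD1* 2 and *GPX2* 1. No probe was named for *SOD2*, the mitochondrial superoxide dismutase gene, so it has no value here.

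These genes cover successive steps in the handling of reactive oxygen. Superoxide dismutases turn superoxide into hydrogen peroxide, and catalase in peroxisomes and glutathione peroxidases then reduce the peroxide, the latter at the expense of glutathione. *GPX1* to *GPX4* encode selenoproteins, with selenocysteine at the active site. *TXNIP* works the other way, since its product binds thioredoxin and limits its reducing activity, and its transcript responds to glucose in many cell types. The gut epithelium is exposed to peroxides from food, bacteria and its own metabolism, and *GPX2* is known as the peroxidase of gastrointestinal epithelium.

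All piglets were 16 days old, suckled by sows, and born to Yorkshire × Landrace dams bred to Duroc boars. Low gain was represented by 2 arrays, each labelled as a pool of 2 piglets, and high gain by 2 arrays, each labelled as a pool of 3 piglets. Arrays are told apart by a letter, a or b, within each group. The labels leave unstated whether the letters stand for different pools or for repeated measurement of the same pool, so the p-values reflect array-to-array spread, perhaps technical, and not variation among piglets. The design text of the series speaks of weight at birth instead of weight gain, and the sample labels were followed. In slices of whole ileum, fewer cells of a type and less RNA per cell cannot be told apart.

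Of 43803 non-control spots, 32835 to 33972 lay well above background on each array, and no spot was saturated. The spread among repeat spots was largest on low-gain array a (median SD 0.135, log2) and 0.0912 to 0.102 on the others. *FABP6*, which encodes the bile acid binding protein of ileal enterocytes, read 8.55 to 8.76 across the arrays. Each of the 32 probes was a single spot, and on every array it exceeded background by the scanner's flag. Levels are log2 processed signals minus the 75th percentile of the array, so that 0 is the 75th percentile. Differences are low gain minus high gain on the same log2 scale, with the standard error (SE) of the limma fit over all 33265 tested probes and n = 2 arrays per group.

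None of the 32 probes passed the test over all probes (0 of 32, limma adjusted p 0.128 to 0.965), where 0.24% of all tested probes did. *GPX3* was higher in low gain by 0.41 to 1.09 on its 4 probes, and *TXNIP* by 0.21 to 0.57 on its 7 probes. *GPX2* was higher by 0.45, and *GPX1* was lower by 0.01 to 0.57 on its 6 probes. *GPX4*, *SOD1* and 8 of the 9 *CAT* probes lay within 0.3 of no difference, and the dimmest *CAT* probe was lower by 0.72. In all, 11 of the 32 probes (9 higher, 2 lower in low gain) had an unadjusted p under 0.05, against 18.4% of all probes. Both low-gain arrays were above both high-gain arrays for 16 of the 32 probes (27.6% of all probes) and below both for 10 (26.9% of all probes). The median difference was 0.08 over the 32 probes and 0.02 over all probes. Since the probes of a gene share their target, these counts are not counts of independent genes.

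A fit in which limma's prior variance followed mean signal gave more calls. There 8 of the 32 probes passed, 7 higher and 1 lower in low gain, where 3.76% of all probes did. They were 5 probes of *TXNIP*, 2 of *GPX3* and 1 of *GPX1*. Leaving out the noisiest array, low-gain array a, leaves low gain with a single array, so calls of that fit among the 32 probes are not given. Without any 1 array the difference on the brightest *GPX3* probe ran from 0.961 to 1.215.

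**Figure D1:**
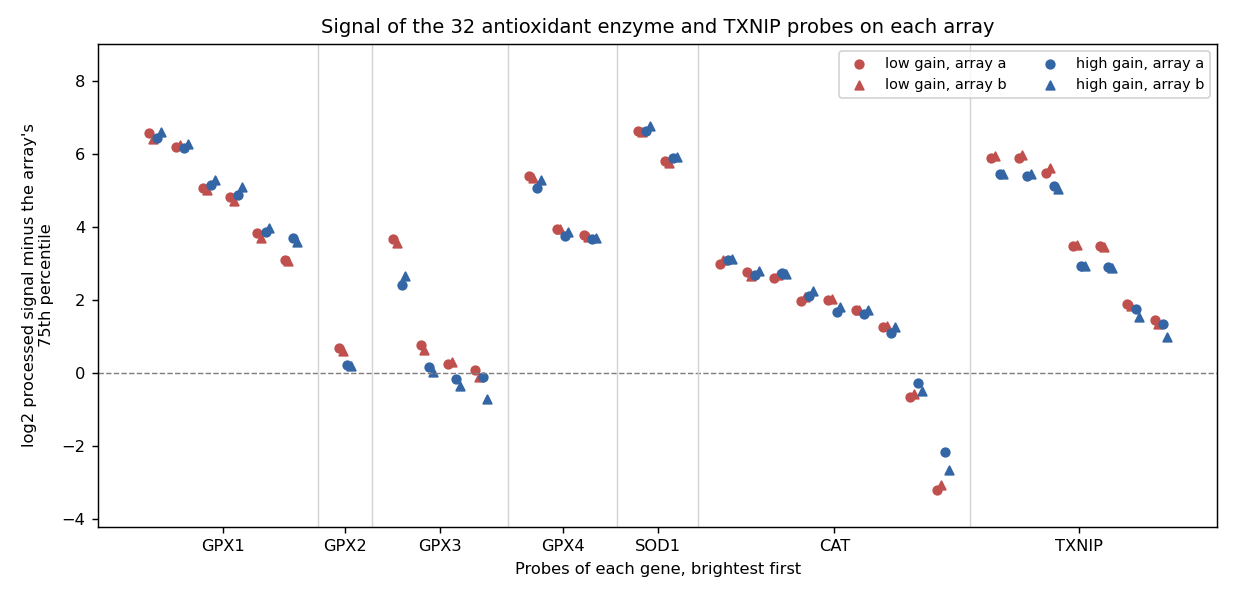
The level of each of the 32 probes (log2 processed signal minus the 75th percentile of the array, dashed line at 0) is plotted for the 4 arrays, with probes ordered by brightness within each gene, low gain in red, high gain in blue, circles for array a and triangles for array b. Both red symbols lie above both blue ones for the 4 *GPX3*, 1 *GPX2*, 3 *GPX4*, 6 of the 7 *TXNIP* and 2 of the 9 *CAT* probes. They lie below for 4 of the 6 *GPX1*, 1 of the 2 *SOD1* and 5 of the 9 *CAT* probes. Many of these gaps are small, as on the dimmest *GPX3* probe, and symbols nearly coincide for the brightest *GPX1*, *SOD1* and *CAT* probes.

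*GPX3* encodes the secreted glutathione peroxidase of plasma. Its brightest probe, A_72_P666610, read 3.66 (array a) and 3.57 (array b) in low gain and 2.40 (array a) and 2.65 (array b) in high gain. Values of the other probes follow the same order. Both low-gain arrays were thus above both high-gain arrays, and the gap between the groups was wider than that within either group. The difference was 1.09 ± 0.14 (SE), a 2.13-fold higher signal in low gain, with a 95% confidence interval of 0.71 to 1.46 (limma adjusted p = 0.128, and 0.00551 with the variance following signal).

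The other 3 *GPX3* probes were far dimmer. A_72_P440086 read 0.76 and 0.63 in low gain and 0.16 and 0.03 in high gain, a difference of 0.60 ± 0.11 (limma adjusted p = 0.172, and 0.0341 with the variance following signal). A_72_P671275 read 0.25 and 0.30 in low gain and -0.17 and -0.36 in high gain, a difference of 0.54 ± 0.12 (limma adjusted p = 0.188, and 0.0501 with the variance following signal). On both probes the low-gain arrays were the higher ones. The dimmest, A_72_P637182, read 0.10 and -0.10 in low gain and -0.11 and -0.71 in high gain. There low-gain array b and high-gain array a were nearly equal, and the difference of 0.41 ± 0.24 rested on high-gain array b, being 0.11 without that array and 0.71 without high-gain array a. All 4 probes differed in the same direction. The brightest, at 1.09, was apart from the other 3 by more than the standard errors. Its 95% confidence interval (0.71 to 1.46) still overlapped theirs (0.28 to 0.92, 0.22 to 0.87 and -0.27 to 1.09). The 3 dimmer probes lay closer together, at 0.60, 0.54 and 0.41. With normexp background correction of the raw spot signal the brightest probe gave 0.96 and the other 3 gave 0.24, 0.26 and 0.033. With outlier-flagged local backgrounds replaced by the array median before normexp these were 1.07, 0.52, 0.51 and 0.41. Averaged over its 4 probes, *GPX3* gave 0.66 ± 0.10 (95% confidence interval 0.39 to 0.94, limma adjusted p = 0.0647), in a fit where 2.09% of named genes passed.

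*GPX2*, the epithelial peroxidase gene, was read by 1 probe. It gave 0.70 and 0.62 in low gain and 0.23 and 0.19 in high gain. The 2 arrays of each group were close together and the groups did not overlap. The difference was 0.45 ± 0.10 (a 1.36-fold higher signal in low gain, 95% confidence interval 0.16 to 0.73, limma adjusted p = 0.194, and 0.0548 with the variance following signal). With normexp background correction the difference was 0.19.

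*GPX1*, the gene of the cytosolic peroxidase found in nearly all cells, had a lower mean in low gain on 6 of 6 probes, but the size depended on the probe. On the brightest, A_72_P623069, the arrays read 6.58 and 6.40 in low gain and 6.44 and 6.59 in high gain. The groups overlapped, and the difference was -0.03 ± 0.13. The second brightest, A_72_P655960, also overlapped between groups (-0.01 ± 0.10). The dimmest, A_72_P564112, read 3.08 and 3.07 in low gain and 3.68 and 3.60 in high gain. Both low-gain arrays were below both high-gain arrays, and the difference was -0.57 ± 0.10 (a 1.48-fold lower signal in low gain, 95% confidence interval -0.85 to -0.29, limma adjusted p = 0.165, and 0.0176 with the variance following signal). The other 3 probes lay between, at -0.15, -0.17 and -0.23, with non-overlapping groups and confidence intervals that included 0. The 6 probes spanned 3.15 log2 units in level although they carry the same transcript name, and the intervals of the brightest (-0.38 to 0.32) and the dimmest overlapped. Averaged over the 6 probes, *GPX1* gave -0.19 ± 0.09 (limma adjusted p = 0.228).

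*GPX4*, whose product reduces peroxides of membrane phospholipids, was bright and close between groups. Its brightest probe, A_72_P388853, read 5.38 and 5.33 in low gain and 5.07 and 5.27 in high gain. The groups did not overlap, but the 2 high-gain arrays lay further apart than the lower low-gain array and the higher high-gain array. The difference was 0.19 ± 0.12, and the other 2 probes gave 0.13 ± 0.10 and 0.07 ± 0.10 (limma adjusted p 0.464 to 0.736 for the 3 probes). The 95% confidence intervals ran from -0.21 at the lowest to 0.52 at the highest, so a difference above 0.52 in size was outside all of them.

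**Figure D2:**
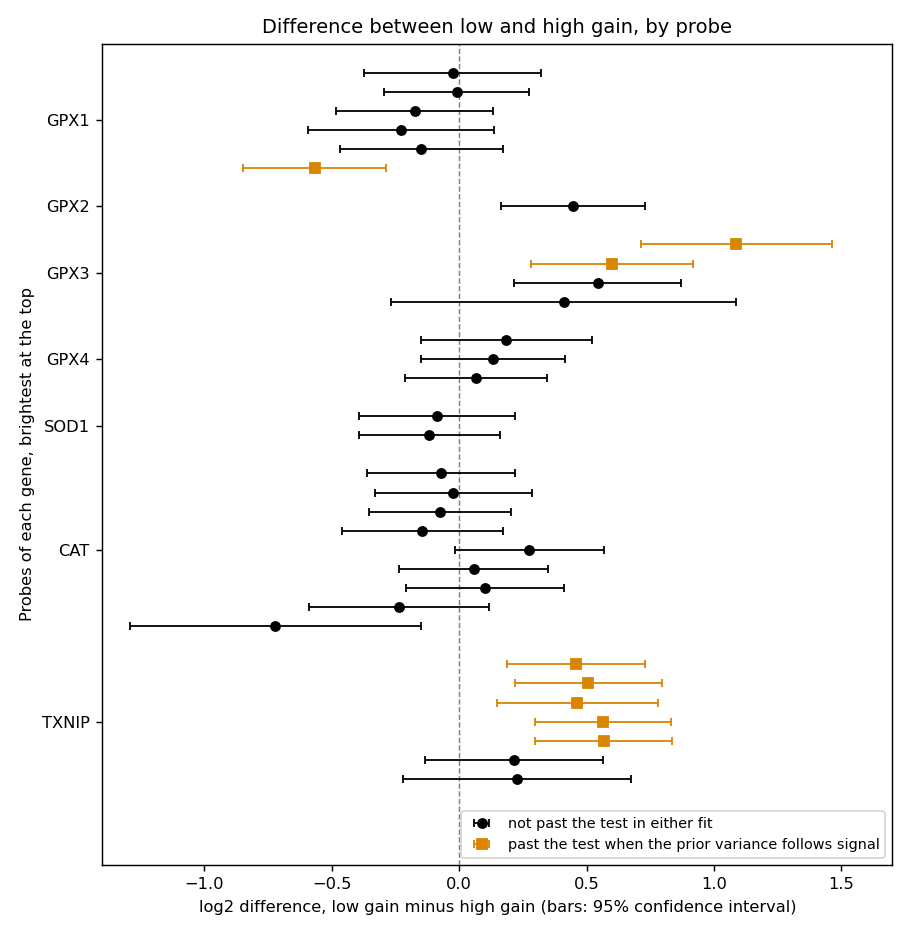
The log2 difference between low and high gain is plotted for each of the 32 probes with its 95% confidence interval from the limma fit, and orange squares mark the 8 probes that passed when the prior variance followed signal. *GPX3* and *TXNIP* probes lie to the right of 0, from 0.41 to 1.09 and from 0.21 to 0.57, *GPX1* probes at or to the left of it, and *CAT* probes on both sides.

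*SOD1*, the gene of the copper and zinc superoxide dismutase of the cytosol, had 2 of the brightest probes. A_72_P721668 read 6.63 and 6.59 in low gain and 6.62 and 6.77 in high gain, and A_72_P757088 read 5.80 and 5.74 in low gain and 5.87 and 5.91 in high gain. The groups overlapped on the first and did not on the second. The differences were -0.08 ± 0.11 and -0.12 ± 0.10 (limma adjusted p = 0.696 and 0.557), with 95% confidence intervals of -0.39 to 0.22 and -0.39 to 0.16.

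*CAT* encodes catalase, the haem enzyme of peroxisomes that splits hydrogen peroxide. Its brightest probe, A_72_P223317, read 2.97 and 3.09 in low gain and 3.09 and 3.11 in high gain, with the higher low-gain array at nearly the level of the lower high-gain array. The difference was -0.07 ± 0.10 (95% confidence interval -0.36 to 0.22, limma adjusted p = 0.732). Of the 9 probes, 6 had a lower and 3 a higher mean in low gain, and the median difference was -0.07. On the higher side, A_72_P664500 read 2.01 and 2.02 in low gain and 1.68 and 1.80 in high gain, a difference of 0.28 ± 0.11 (limma adjusted p = 0.289). On the lower side, A_72_P686566 read -3.21 and -3.05 in low gain and -2.16 and -2.65 in high gain. Both sets of arrays were apart in each case, in opposite directions. The difference on A_72_P686566 was -0.72 ± 0.21 (95% confidence interval -1.29 to -0.15, limma adjusted p = 0.220, and 0.122 with the variance following signal). This probe was the dimmest of the 32, with processed intensities of 44.5 to 108, and its difference was -0.27 after normexp background correction. The 9 probes thus gave no shared direction, and their average was -0.09 ± 0.07 (limma adjusted p = 0.453).

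*TXNIP* was higher in low gain on 7 of 7 probes, which spanned 4.4 log2 units in level. Its brightest probe, A_72_P549696, read 5.88 and 5.93 in low gain and 5.45 and 5.45 in high gain. A_72_P592864, of similar level, read 5.87 and 5.98 in low gain and 5.40 and 5.43 in high gain. The low-gain arrays were the higher ones on both probes, by several times the gap between arrays of a group. The differences were 0.46 ± 0.10 and 0.51 ± 0.10, a 1.37-fold and a 1.42-fold higher signal in low gain (limma adjusted p = 0.186 and 0.184, and 0.0245 and 0.0235 with the variance following signal).

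*TXNIP* probes of middle level gave similar sizes. A_72_P562489 read 3.48 and 3.50 in low gain and 2.92 and 2.93 in high gain, and A_72_P673176 read 3.46 and 3.45 in low gain and 2.90 and 2.88 in high gain. Arrays of a group agreed within 0.03 on both, while the groups were 0.56 ± 0.10 and 0.57 ± 0.10 apart (limma adjusted p = 0.161 for each, and 0.0160 for each with the variance following signal). A_72_P585156 gave 0.46 ± 0.11. The 2 dimmest probes gave 0.21 ± 0.13 and 0.23 ± 0.16, and the groups overlapped on A_72_P634991, where low-gain arrays read 1.45 and 1.33 and high-gain arrays 1.34 and 0.99. Without 1 array these 2 differences ran from 0.10 to 0.33 on A_72_P391733 and from 0.054 to 0.40 on A_72_P634991, and the latter was 0.054 with normexp. Averaged over its 7 probes, *TXNIP* gave 0.43 ± 0.08 (95% confidence interval 0.21 to 0.65, limma adjusted p = 0.0745).

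Related pathway genes were then read with 1 probe per gene, the brightest. Of 170 genes in 10 lists, 63 had a tested probe. None of the 63 passed the test, where 0.417% of 2158 named genes did. With the variance following signal, 2 of the 63 passed as higher in low gain (5.19% of named genes) and 4 as lower (2.69% of named genes). The median difference was 0.08 over the 63 genes and 0.02 over all named genes.

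Of 20 listed genes of the thioredoxin system, on which *TXNIP* acts, 7 were tested. On their brightest probes these were close between groups. Thioredoxin itself (*TXN*) read 5.85 and 5.83 in low gain and 5.79 and 5.98 in high gain, a difference of -0.04 ± 0.12. The thioredoxin reductase genes *TXNRD1* and *TXNRD2* differed by 0.08 ± 0.11 and -0.0041 ± 0.10, and the peroxiredoxin genes *PRDX5* and *PRDX6* by 0.04 ± 0.11 and 0.02 ± 0.10. Other probes of *TXNRD1* gave -0.07 to 0.03, and those of *PRDX6* gave -0.03 to 0.17. The 7 tested genes of this list ran from -0.12 (*PARK7*) to 0.08, with a median of 0.02, and none passed in either fit. *MSRB1* gave 0.05 ± 0.11 on its brightest probe and -0.32 on the other. *TXN2*, *PRDX1*, *PRDX2*, *PRDX3*, *PRDX4* and *SRXN1* were among the genes without a named probe.

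Genes of glutathione supply and use had few tested members. The 3 genes of glutathione synthesis and recycling had higher means in low gain, namely *ANPEP* (0.68 ± 0.10), which encodes a brush-border peptidase that can cleave the dipeptide left from glutathione, *CTH* (0.34 ± 0.11), which encodes the enzyme that makes cysteine from cystathionine, and *GGT1* (0.17 ± 0.21). *ANPEP* passed with the variance following signal (limma adjusted p = 0.00664), and its 2 other probes gave 0.14 and 0.55. *GCLC*, *GCLM*, *GSS* and *GSR* had no named probe. Among 5 genes of glutathione transferases and glutaredoxins the median was 0.16 and none passed in either fit, with *GLRX* at -0.28 ± 0.12 and the microsomal transferase genes *MGST1* at 0.24 ± 0.12 and *MGST3* at 0.21 ± 0.12. The direction of *MGST1* depended on the probe, with 6 other probes at -0.32 to 0.50, and another *GLRX* probe gave -0.44. *GPX6*, *SOD3* and the copper chaperone gene *CCS* differed by 0.29 ± 0.45, 0.10 ± 0.16 and -0.08 ± 0.11. The *GPX6* and *SOD3* probes were dim, at -3.87 to -2.65 and -5.21 to -4.88.

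For selenoproteins and selenium handling, 11 genes were tested, of which 8 were higher in mean in low gain and the median was 0.10. *SELENOM*, which encodes a selenoprotein of the endoplasmic reticulum, read -0.47 and -0.57 in low gain and -1.28 and -1.23 in high gain. Its low-gain arrays were higher by 0.74 ± 0.10 (limma adjusted p = 0.139), and it passed with the variance following signal (adjusted p = 0.0282). The deiodinase gene *DIO1* differed by 0.68 ± 0.16 (limma adjusted p = 0.195), and its only tested probe was dim, at -2.87 to -1.99. *SELENOP*, the gene of the selenium carrier of plasma, differed by 0.15 ± 0.11 with 9 other probes at 0.04 to 0.13, and *SEPHS2*, the selenophosphate synthetase gene, by 0.10 ± 0.10 with 3 other probes at -0.32 to 0.12.

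**Figure D3:**
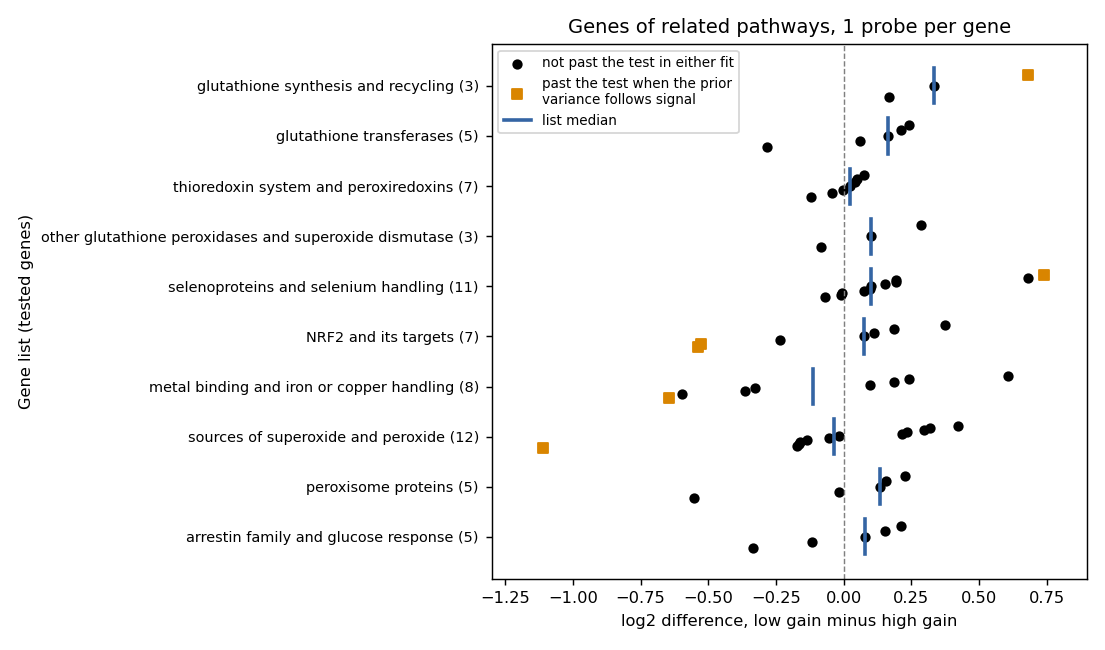
Each point is the log2 difference between low and high gain of 1 tested gene, read by its brightest probe, in 10 related gene lists. Blue bars are list medians, orange squares mark genes past the test when the prior variance followed signal, vertical spread within a list has no meaning, and genes in several lists appear in each. The thioredoxin list runs from -0.12 to 0.08, while *HMOX1* and *AKR1B1* (NRF2 list), *TF* (metal list) and *NCF1* (superoxide list) lie to the left.

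NRF2 is the transcription factor that turns on many antioxidant genes, and 7 genes of its list were tested. *HMOX1*, which encodes the inducible haem oxygenase, read 3.08 and 3.15 in low gain and 3.61 and 3.70 in high gain. Both low-gain arrays were the lower ones, and the difference was -0.54 ± 0.10 (limma adjusted p = 0.175, and 0.0224 with the variance following signal), with its 2 other probes at -1.25 and -0.39. *AKR1B1*, an aldose reductase gene, gave -0.53 ± 0.11 (adjusted p = 0.0285 with the variance following signal), and its other probe gave -0.87. *EPHX1*, an epoxide hydrolase gene, gave 0.37 ± 0.11 on its brightest probe and -0.50 on the other, so its probes differed in direction. *NQO1*, a quinone reductase gene, gave 0.11 ± 0.12, with 2 other probes at 0.06 and 0.38. The list median was 0.08, and 4 of the 7 genes had a higher mean in low gain.

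Among 8 genes of metal handling, the transferrin gene *TF* gave -0.64 ± 0.11 (limma adjusted p = 0.0420 with the variance following signal), the transferrin receptor gene *TFRC* -0.60 ± 0.17 and the lactoferrin gene *LTF* 0.61 ± 0.27, with another *LTF* probe at 0.33. The *TFRC* probe was dim, at -4.13 to -3.25. The ferritin heavy chain gene *FTH1* gave 0.19 ± 0.13, with 9 other *FTH1* probes at -0.24 to 0.17. The 12 tested genes of the list on sources of superoxide and peroxide, which also held nitric oxide synthase genes, had a median of -0.04. *NCF1*, which encodes a cytosolic subunit of the phagocyte oxidase, read -0.69 and -0.43 in low gain and 0.80 and 0.29 in high gain, a difference of -1.11 ± 0.23 (adjusted p = 0.183, and 0.0333 with the variance following signal). The membrane subunit genes gave -0.17 ± 0.11 (GP91-PHOX) and -0.05 ± 0.11 (*CYBA*), and the epithelial oxidase genes *DUOX1* and *DUOX2* 0.42 ± 0.19 and 0.21 ± 0.13. Other probes gave different sizes or directions, at -0.91 for GP91-PHOX, -0.49 and 0.28 for *DUOX1* and -0.16 to 0.54 for *DUOX2*. Even the brightest *DUOX1* probe was dim, at -3.83 to -3.14. The 5 peroxisome genes and the 5 genes of glucose response had medians of 0.13 and 0.08, with none past the test in either fit. The sterol carrier gene *SCP2* differed by -0.55 ± 0.21 and *PHYH*, which encodes a peroxisomal hydroxylase, by 0.23 ± 0.11, with 3 other *PHYH* probes at -0.15 to 0.09. The *SCP2* probe was dim, at -5.18 to -4.28. *SLC5A1*, the sodium-glucose transporter gene, differed by 0.08 ± 0.11 on its brightest probe, while its 3 other probes ran from -0.63 to 0.07. *PCK1*, a gluconeogenesis gene, differed by -0.34 ± 0.11, with 4 other probes at -0.63 to -0.31. *ARRDC4*, a relative of *TXNIP*, and *MLXIPL*, the gene of a glucose-responsive transcription factor, had no named probe.

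Levels of cell type markers are given beside these values, again with the brightest probe of each gene. Of 9 enterocyte genes, 8 had a higher mean in low gain (median 0.44), with *ANPEP* at 0.68, *CDH1* at 0.58 and *FABP2* at 0.48, and their summed level was 9.74 to 9.80 (log2) in low gain and 9.55 to 9.66 in high gain. Of 5 smooth muscle genes, 4 had a higher mean (median 0.48), with *MYLK* at 0.56, *DES* at 0.51 and *CNN1* at 0.48, and summed levels of 8.24 to 8.27 against 7.86 to 7.88. The 2 other *DES* probes gave -0.34 and -0.02. The 4 goblet cell genes were all higher in mean (median 1.02), with *CLCA1* past the test (1.73 ± 0.10, limma adjusted p = 0.0393), *RETNLB* at 1.57, *SPINK4* at 0.46 and summed levels of 7.45 to 7.48 against 6.44 to 6.54. With normexp background correction the medians were 0.42 for enterocytes, 0.47 for smooth muscle and 0.63 for goblet cells.

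Markers of immune cells were read in the same way. Of 9 T and natural killer cell genes, 8 had a higher mean in low gain (median 0.53), and summed levels were 4.09 to 4.10 in low gain against 3.13 on both high-gain arrays. The granzyme gene *GZMK* passed the test (1.67 ± 0.10, limma adjusted p = 0.0383), and *GZMB* and *GZMA* gave 1.17 ± 0.10 and 0.99 ± 0.10. All 5 tested neutrophil genes had a higher mean in low gain (median 0.55), with *ARG1* at 1.13 ± 0.14, *S100A8* at 1.06 ± 0.19, *S100A9* at 0.55 ± 0.22 and summed levels of 0.63 to 0.65 against 0.20 to 0.32. The 3 other *ARG1* probes gave 0.07 to 1.42. The probes read for *ARG1*, *S100A8* and *S100A9* were dim, at -4.37 to -3.04, -4.36 to -3.02 and -4.74 to -3.79. Summed levels of this list came mostly from a brighter gene. With normexp background correction the list medians were 0.24 for T and natural killer cells and 0.12 for neutrophils. The part of enterocytes, smooth muscle, goblet cells and these immune cells in the values of *GPX2*, *GPX3* and *TXNIP* was not tested.

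Fat cells are known to transcribe *GPX3*, and their 9 tested markers differed in both directions. In low gain 5 had a lower mean, with *PLIN1* at -1.63 ± 0.55 and *FABP4* at -1.55 ± 0.12, and 4 a higher mean, with the resistin gene *RETN* at 1.04 ± 0.10 and its other probe at 1.78. The list median was -0.18, and summed levels were 3.94 to 3.95 in low gain against 4.12 to 4.14 in high gain. These sums came mostly from *LIPE*, at -0.18 ± 0.10, with 2 other probes at -0.08 and 0.18. With the variance following signal, 2 markers passed as lower, *FABP4* among them (limma adjusted p = 0.00112), and 1 as higher in low gain, *RETN* (0.00333). All 5 tested macrophage markers had a lower mean in low gain, with *SIGLEC1* at -1.57 ± 0.41, *CD163* at -0.41 ± 0.10 and *CD86* at -0.28 ± 0.10. Their summed levels were 4.48 to 4.49 in low gain against 4.64 on both high-gain arrays. The macrophage sums came mostly from *AIF1*, at -0.07 ± 0.10, with another probe at 0.0021. *SIGLEC1* and *PLIN1* each failed the scanner's background flag on 1 of the 4 arrays. The part of fat cells in the values of *GPX3*, and of macrophages in those of *HMOX1* and *NCF1*, was not tested.

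The other marker lists had few tested genes. The median was -0.08 over 4 genes of crypt and dividing cells, -0.12 over 2 of B and plasma cells, -0.01 over 4 of endothelium and 0.26 over 4 of liver cells, with none past the test over all probes. Of the crypt and dividing cell genes, 3 had a lower mean in low gain and 1 a higher mean. The latter was *ASCL2*, at 0.53 ± 0.11 (limma adjusted p = 0.0380 with the variance following signal). With normexp background correction the liver cell median was -0.017. Red blood cells carry much catalase, *GPX1* and *SOD1* protein, and of 13 red cell markers listed only the embryonic globin gene *HBE1* had a named probe, at -3.32 and -5.14 in low gain and -5.83 and -5.17 in high gain.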

How the data were processed

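Total RNA of ileum slices was labelled with Cy3 and hybridised to 4 single-colour pig arrays. Per the file headers, Agilent Feature Extraction 10.7.3.1 made the deposited spot intensities. A table of log2 values deposited by the authors for these arrays has a normalisation that the sources used here do not give; its column medians were 5.70 to 5.78, its values correlated at 0.982 to 0.993 with log2 processed signal of the same array, and it was used as an alternative.

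Here the log2 processed signal minus the 75th percentile of non-control spots was used. Outlier spots were left out, repeat spots averaged, and 48 incomplete probes removed. A probe entered the test if well above background on both arrays of at least 1 group. The comparison used limma 3.58.1 (lmFit, eBayes; R 4.3.3), p-values were adjusted by Benjamini-Hochberg across every tested probe (threshold 0.05), and the code was tested on simulated data. Averages over the probes of a gene were fitted and adjusted over 2158 genes. Names came from RefSeq accessions matched to an NCBI table of Sscrofa11.1 (5455 probes). The files name no build, so no coordinates are given, and probe sequences were not used here.

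All probes of the members are described. From each pathway list up to 4 genes, and from each marker list up to 3, were named, those past the test first and then those with the largest difference. Outside that rule, *TXN*, *TXNRD2*, *PRDX6*, *SELENOP*, *SEPHS2*, *NQO1*, *FTH1*, *CYBA*, GP91-PHOX, *DUOX2*, *SLC5A1* and *FABP6* were named for their role after their values were seen. *LIPE* and *AIF1* were named for their share of the summed levels, also after their values were seen. The members and lists were chosen with earlier results of these data known.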

Additional observations from a re-analysis of the deposited data

How the results depend on the processing

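Of the 32 probes, 0 passed under median centring, quantile normalisation, normexp, the authors' values, either other filter or the letter block. Fits without 1 array left a group with a single array, so their counts among the 32 probes are not given. Their counts over all probes are listed below for completeness, and no conclusion is drawn from them. With the variance following signal 8 passed, and with normexp and outlier-flagged local backgrounds replaced by the array median (an alternative chosen after seeing the data) also 8, with 7 shared. A fit with the trend but without low-gain array a was also added, and for the 32 probes only its differences are given. Pathway genes past the test numbered 6 with the trend, 6 with backgrounds replaced and 1 (*SELENOM*) with probes of a gene averaged. Over all probes, 80 passed, against 163 with median centring, 1250 with the trend, 1097 with backgrounds replaced, 197 with the trend without low-gain array a, 12 with no filter, and 0 with normexp, with signal required on all arrays (6071 at an unadjusted p under 0.05) or with the replicate block (4703 unadjusted). Without 1 array 0 to 37 passed. The cause of these changes was not tested. No effect shared by arrays of the same letter was seen (correlation of deviations of array a, low with high, -0.03 over 31471 probes). With 2 arrays per group this value cannot tell whether the arrays were handled in pairs.

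Directions were kept by all *GPX2*, *GPX3*, *GPX4*, *SOD1* and *TXNIP* probes in all alternatives run. Near-zero differences changed sign. *GPX1* A_72_P655960 gave 0.067 with normexp, 0.056 with backgrounds replaced, 0.044 with the authors' values, -0.058 to 0.037 without 1 array, and 0.012 with the trend without low-gain array a. *GPX1* A_72_P623069 ran from -0.11 to 0.062 without 1 array. For *CAT*, A_72_P223317 gave 0.0022 and A_72_P632481 gave 0.00049 with normexp, and without 1 array A_72_P632481 ran from -0.081 to 0.036 and A_72_P644069 from -0.0019 to 0.12. The number of arrays limits every value.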
